A study of Mus musculus with 6 samples.

Results

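The mitochondrial ribosomal protein genes are the nuclear genes whose symbols begin with Mrpl, for the large subunit, or Mrps, for the small subunit, followed by a digit. Pseudogene symbols ending in -ps and genes without a count were to be left out, and neither kind occurred. The rule found 78 of 19390 genes in the count table, 49 of the large and 29 of the small subunit, and used no measured difference between groups. RNA was sequenced from γδ T cells, a class of lymphocytes named for the 2 chains of their antigen receptor, which had been sorted from mouse spleen. The 3 libraries labelled WT were taken as Usf3 f/f and the 3 labelled KO as Usf3 f/f mice that also carried CD2-cre, both at 6 weeks of age. The floxed Usf3 allele is thus shared by both groups, and only the KO group carries Cre. CD2-cre expresses Cre recombinase in lymphoid cells, so its action is not limited to γδ T cells. The labels do not say whether the libraries of a group came from separate animals, so p-values measure only the spread between these libraries, which may be technical.

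The mitochondrial ribosome translates the few messenger RNAs that are encoded in mitochondrial DNA, which specify membrane subunits of the respiratory chain and of ATP synthase. Its RNA is encoded in mitochondrial DNA, whereas its proteins are made in the cytosol from nuclear genes and imported. The small subunit binds and decodes the messenger RNA, and the large subunit forms the peptide bond and releases the new chain through a tunnel towards the inner membrane. Many of its proteins have bacterial counterparts and others exist only in mitochondrial ribosomes. Usf3 belongs to a family of basic helix-loop-helix factors named after the upstream stimulatory factors, which bind the E-box CACGTG.

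Totals ran from 34644862 to 35806402 counts per library, and each member had between 340 and 3710 counts in every library. Of the 78 members, 78 passed the filter on low counts, as did 12810 genes in all. Usf3 stood at 70.2, 72.7 and 73.8 CPM in the WT libraries and 72.0, 65.9 and 67.5 CPM in the KO libraries, where CPM relates each count to the TMM-scaled library total. Its log2 fold change was -0.08 ± 0.04 (SE), with a Benjamini-Hochberg adjusted p of 0.261 in edgeR. Which exons of Usf3 are floxed is not given in the labels. A count over the whole gene may miss the loss of single exons, so this level neither bears out the labels nor goes against them. The T cell markers Cd3g, Cd3d and Cd3e were lower in KO, by -0.17, -0.12 and -0.08 on the log2 scale (adjusted p 5.91e-05, 0.00287 and 0.0364), while Cd247, the other T cell marker with a row, had a log2 fold change of 0.03 (edgeR adjusted p 0.593). The summed level of the 4 T cell markers with a row was 1172 to 1190 CPM in WT and 1073 to 1132 CPM in KO. The γδ receptor genes on the list were not analysed here. Markers of other cell types, 17 of 22 with a row and none at 0 in all libraries, summed to 26.6 to 28.0 CPM in WT and 25.2 to 27.0 CPM in KO, most of it Cd8b1. Within that sum Itgam, a myeloid marker, was lower in KO, at 1.15, 1.70 and 1.79 CPM in WT and 0.512, 1.09 and 0.288 CPM in KO (log2 fold change -1.29, edgeR adjusted p 0.0242). Dendritic cell markers summed to 0.0575 to 0.506 CPM in WT and 0.642 to 1.05 CPM in KO, and platelet markers to 0.0562 to 0.199 and 0.195 to 0.604 CPM. Their part in the results below was not tested.

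Because the E-box is the site of the USF family, the stretches of member promoters that hold CACGTG are shown first. Promoters run from 250 bases before to 50 bases after each RefSeq start on GRCm38.p6, and 69 of 78 members had an entry. The searched letters, read on both strands, occurred in 5 of these 69 members (7.25%) and in 1145 of 10079 tested genes with an entry (11.4%). Counted per window instead of per gene, the shares were 9.33% of 75 windows and 9.60%. Windows of nearby starts overlap, so the same Mrpl2 site was counted repeatedly in the members' share. The stretches are given 5′ to 3′ along the gene's strand with the E-box in capitals.
Mrpl2, chr17:46646078-46646107, plus strand: actgccgcccgtCACGTGacccgagcaacc
Mrpl20, chr4:155802833-155802862, plus strand: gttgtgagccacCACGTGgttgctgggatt
Mrpl36, chr13:73330954-73330983, plus strand: cacacgtcatccCACGTGaccttacgccat
Mrpl37, chr4:107067011-107067040, minus strand: agcaagtttcttCACGTGtggcacttcaga
Mrps18c, chr5:100798584-100798613, plus strand: gcagccccgggtCACGTGacttccggcccg
None of these 5 genes passed the test by edgeR, and their median log2 fold change was 0.02, beside 0.05 in the matched members without the letters. Among all tested genes with an E-box in a promoter window, 16.9% passed. The variant CATGTG, also searched on both strands, was in 4 of 69 members (5.80%) and in 10.7% of tested genes.

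Motifs of other factors known for nuclear genes of mitochondrial proteins were also searched on both strands. The ETS core CCGGAAG, the kind of site bound by GABP, was found in 26 of 69 members (37.7%) and in 20.5% of tested genes. It occurred in 15 of 43 large-subunit and 11 of 26 small-subunit promoters. The palindromic site of NRF1, in capitals in 2 stretches below, was in 3 of 69 members (4.35%) and 2.30% of tested genes. A long form of the YY1 site was in 5 members (7.25%) and 1.84% of tested genes, and the shorter AAGATGG, which it contains, in 13 members (18.8%) and 8.54%. The GC box GGGCGG was in 34 members (49.3%) beside 66.3%, and TATAAA was in 5 (7.25%) beside 8.74%. Examples follow in the same manner, with the motif in capitals on whichever strand it was read, and include Mrps16, the 1 member with the ETS core among the 4 passing members that had an entry (Mrpl4 and Mrpl13 had none).
Mrps16, ETS, chr14:20393547-20393575, minus strand: ttgggggcgctCTTCCGGgcttcaggctc
Mrpl27, ETS, chr11:94653725-94653753, plus strand: gtccgcaagacCCGGAAGtagatctatcc
Mrpl51, ETS, chr6:125192099-125192127, plus strand: caggggctaaaCCGGAAGtatttgactgg
Mrps27, ETS, chr13:99344727-99344755, plus strand: tggtaggaccaCTTCCGGcggaggcgggc
Mrpl9, NRF1, chr3:94443298-94443327, plus strand: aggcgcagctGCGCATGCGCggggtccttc
Mrpl32, NRF1, chr13:14613105-14613134, minus strand: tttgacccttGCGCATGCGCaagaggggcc
Mrps27, YY1, chr13:99344789-99344817, plus strand: tggtgcgctccAAGATGGcggctcccatg
Members with the ETS core had a median log2 fold change of 0.04 and those without it 0.07. A match is a description of the letters in this window and not a measured binding site.

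Few mitochondrial ribosomal protein genes differed between KO and WT, and those that did differed by less than 1.2-fold. Of the 78 members, 4 rose (Mrpl10, Mrpl45, Mrpl4 and Mrps5) and 2 fell (Mrpl13 and Mrps16) at an edgeR Benjamini-Hochberg adjusted p under 0.05. That is 7.69% of the members, beside 17.3% of all tested genes and 18.7% of the 5852 tested genes within the members' range of mean CPM. By direction, 5.13% of members rose beside 7.23% of tested genes, and 2.56% fell beside 10.1%. Under the other scalings, filters, tools and subsets of libraries, 12.1% to 19.9% of all tested genes passed. The members that passed numbered 10 with upper-quartile scaling or library totals alone, which added Mrpl20, Mrpl38, Mrps6 and Mrps7, and 3 without WT replicate 1 or without WT replicate 2. The large subunit had 3 genes that rose and 1 that fell of 49, and the small subunit 1 and 1 of 29. In bulk RNA, fewer cells of a type and less RNA per cell cannot be told apart.

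**Figure D1:**
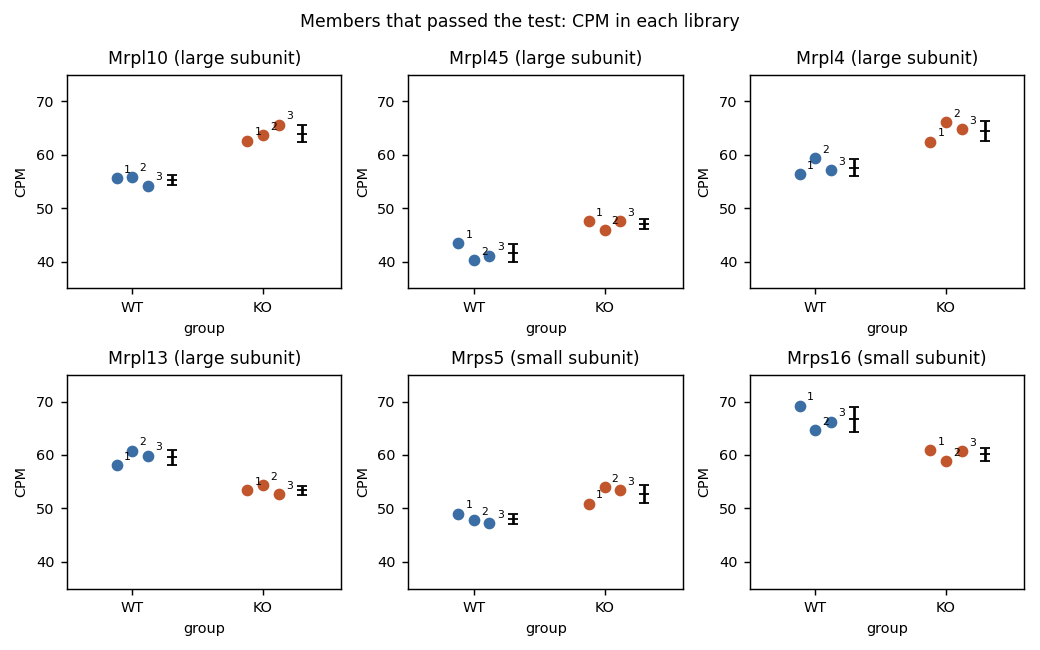
CPM of the 6 members that passed the test in each library (y axis from 35 to 75 CPM in all panels; points are libraries numbered by replicate, bars are the mean ± SD of 3). In each panel the 3 KO points lie on one side of the 3 WT points, above them for Mrpl10, Mrpl45, Mrpl4 and Mrps5 and below them for Mrpl13 and Mrps16.

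Mrpl10, which carries the stalk of the large subunit that recruits translation factors, stood at 55.6, 55.9 and 54.2 CPM in WT and at 62.6, 63.6 and 65.6 CPM in KO. The highest WT library lay well below the lowest KO library, and the spread within either group was small. The means were 55.2 ± 0.932 and 64.0 ± 1.52 CPM (SD, n = 3), a log2 fold change of 0.21 ± 0.04 (SE) or 15.8% (95% interval 8.92% to 23.1%), with an edgeR adjusted p of 0.000879. Mrpl12, the protein of that stalk, had 86.0, 79.9 and 86.9 CPM in WT and 92.0, 87.0 and 89.9 CPM in KO. Its groups were apart by a narrow margin, and its log2 fold change of 0.09 had an edgeR adjusted p of 0.150.

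Mrpl45 is found only in mitochondrial ribosomes and lies at the tunnel exit, where it ties the large subunit to the inner membrane. It measured 43.4, 40.2 and 41.1 CPM in WT and 47.6, 46.0 and 47.6 CPM in KO. The KO libraries were all higher, and WT replicate 1 was the nearest to them. The log2 fold change was 0.18 ± 0.05 (SE), or 13.1% (5.46% to 21.3%), with an edgeR adjusted p of 0.0125. Mrpl4, whose bacterial counterpart lines the exit tunnel, rose from 56.4, 59.3 and 57.1 CPM to 62.4, 66.1 and 64.8 CPM. That change was 0.16 ± 0.04 (SE) on the log2 scale, or 11.9% (5.14% to 19.1%), with an edgeR adjusted p of 0.0104. Leaving out 1 library ended the call of Mrpl45 without WT replicate 2 (edgeR adjusted p 0.0662) or KO replicate 1 (0.0524), and that of Mrpl4 without WT replicate 1 (0.0550).

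Mrpl13, a large-subunit protein with a bacterial counterpart, fell from 58.1, 60.8 and 59.9 CPM to 53.4, 54.3 and 52.6 CPM. All 3 KO libraries were below all 3 WT libraries. Its log2 fold change was -0.16 ± 0.04 (SE), or -10.3% (-15.7% to -4.58%), with an edgeR adjusted p of 0.0126. The call ended without WT replicate 2 (edgeR adjusted p 0.0684) or WT replicate 3 (0.0515). The gene overlaps Mtbp on the opposite strand by 330 bp of exon in the GRCm38 annotation. Use of strand and the handling of such overlaps in the counting are not given, so reads there may have been miscounted or left out. Mtbp itself had a log2 fold change of -0.03 with an edgeR adjusted p of 0.699.

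Mrps16, a small-subunit protein with a bacterial counterpart, fell from 69.2, 64.6 and 66.2 CPM to 60.9, 58.8 and 60.7 CPM. WT replicate 1 was the highest library, and the groups did not overlap. Its log2 fold change was -0.15 ± 0.04 (SE), or -9.85% (-15.2% to -4.11%), with an edgeR adjusted p of 0.0168. The call ended without WT replicate 1 (edgeR adjusted p 0.114) or KO replicate 2 (0.0546). Mrps5, whose bacterial counterpart sits at the entry of the messenger RNA channel, rose from 49.0, 47.8 and 47.2 CPM to 50.8, 54.0 and 53.4 CPM. Its log2 fold change was 0.13 ± 0.05 (SE), or 9.81% (2.83% to 17.3%), with an edgeR adjusted p of 0.0438. Mrps5 was the least stable of the 6: DESeq2 gave an adjusted p of 0.0605, no filter on low counts 0.0592, and leaving out a library of either group except KO replicate 1 gave 0.0674 to 0.137.

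To show sequence upstream of members that rose, the 120 bases before the start of Mrpl10, Mrpl45 and Mrps5 follow on their own strand of GRCm38.p6. Mrpl4 is left out because it had no entry. None of the searched motifs was found within these 120 bases, so no letters are in capitals.
Mrpl10, chr11:97041462-97041581, plus strand: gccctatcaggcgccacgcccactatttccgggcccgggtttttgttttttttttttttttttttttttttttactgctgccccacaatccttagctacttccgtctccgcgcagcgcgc
Mrpl45, chr11:97315596-97315715, plus strand: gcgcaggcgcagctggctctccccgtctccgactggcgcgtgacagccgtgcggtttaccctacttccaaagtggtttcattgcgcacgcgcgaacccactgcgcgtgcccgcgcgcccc
Mrps5, chr2:127587306-127587425, plus strand: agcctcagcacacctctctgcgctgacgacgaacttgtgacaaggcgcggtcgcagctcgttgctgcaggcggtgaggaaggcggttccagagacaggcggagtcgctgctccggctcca

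Several members came near the threshold without passing it. Mrps6, a small-subunit protein with a bacterial counterpart, stood at 17.3, 18.5 and 17.4 CPM in WT and 20.0, 19.4 and 22.0 CPM in KO, with a log2 fold change of 0.21 ± 0.07 (SE) and an edgeR adjusted p of 0.0543. Mrps7, which lies in the head of the small subunit, had 57.4, 53.6 and 59.3 CPM in WT and 61.5, 64.5 and 60.6 CPM in KO, with 0.13 and an adjusted p of 0.0571 by edgeR. In both genes the groups did not overlap. Mrpl38, a mitochondria-specific protein of the large subunit, had 24.4, 24.4 and 25.6 CPM in WT and 29.1, 25.5 and 30.2 CPM in KO, and here KO replicate 2 lay within the WT range. Its log2 fold change was 0.19 with an edgeR adjusted p of 0.0587. Mrps2 had 0.15 with an edgeR adjusted p of 0.0751, and Mrpl55 0.19 with 0.0932.

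On the lower side, Mrpl33 stood at 58.4, 57.0 and 58.1 CPM in WT and at 55.8, 48.9 and 54.1 CPM in KO, with a log2 fold change of -0.13 and an edgeR adjusted p of 0.0804. KO replicate 2 was the lowest library. Mrps28 had -0.15 with an edgeR adjusted p of 0.201, Mrps26 had -0.09 with 0.225, and Mrpl53 had -0.10 with 0.530. The libraries of both groups were apart for 26 members (33.3%), 19 with KO above (24.4%) and 7 with KO below (8.97%). The same shares over all tested genes were 32.1%, 15.5% and 16.7%.

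**Figure D2:**
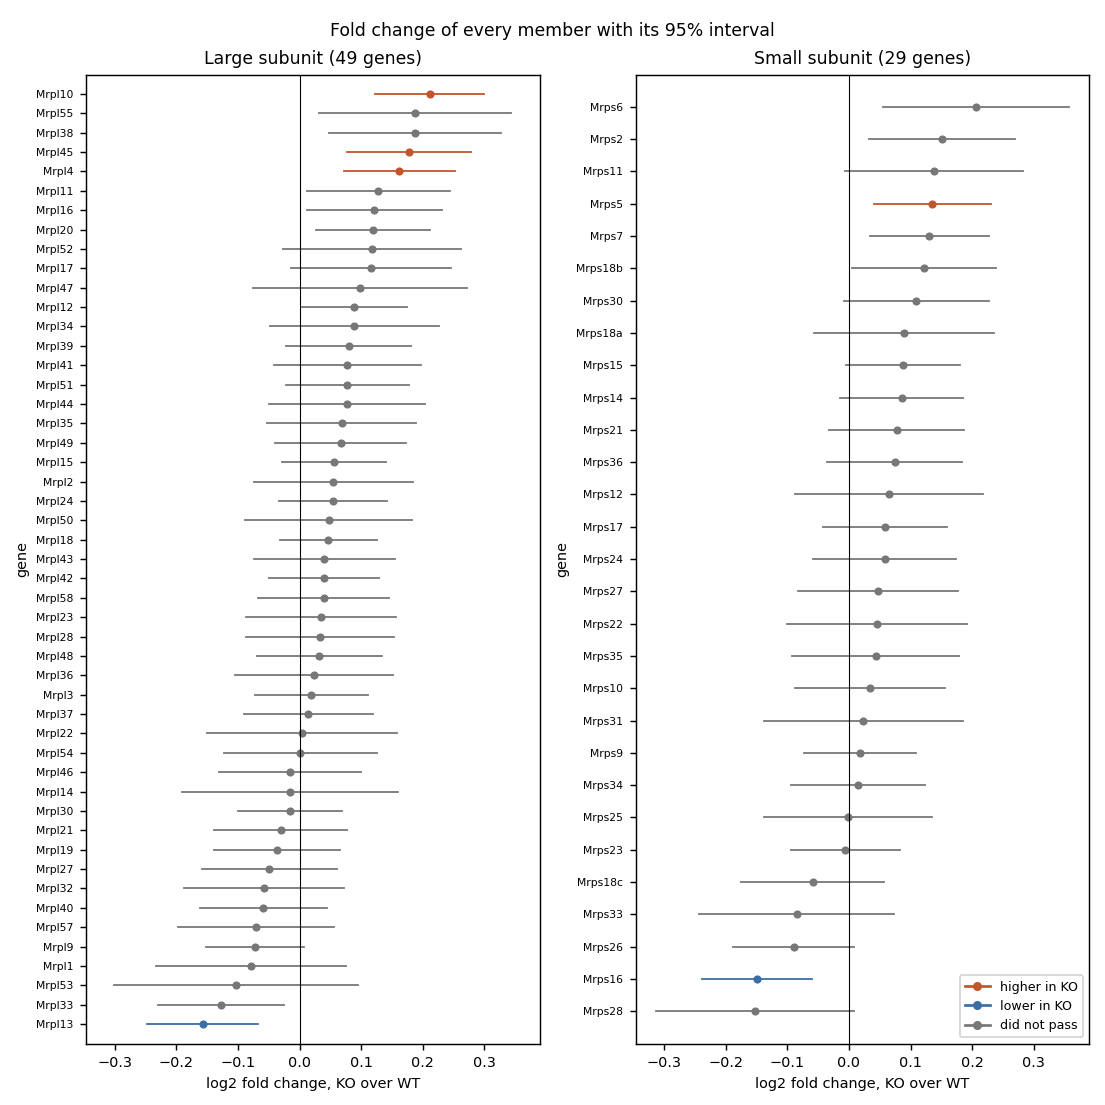
Log2 fold change of KO over WT (x axis) of each of the 78 members (y axis), with its 95% interval from the quasi-likelihood fit, for 49 large-subunit genes on the left and 29 small-subunit genes on the right. Orange marks the 4 genes that rose, blue the 2 that fell, and grey those that did not pass.

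The estimates leaned towards higher levels in KO, by little. The log2 fold change was above 0 in 57 of 78 members (73.1%), in 35 of 49 large-subunit and 22 of 29 small-subunit genes, beside 50.4% of all tested genes. The median was 0.05 over members, 0.04 in the large subunit and 0.06 in the small subunit, beside 0.0014 over all tested genes. Between 53 and 59 members were above 0 under the other scalings and with each library left out. These counts and medians describe the list, whose genes are not independent of one another.

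The intervals give a range of change for each gene on its own, measured only against the spread between these libraries. As that spread may be technical, they do not bound the change between animals. The 95% interval lay within 1.2-fold in either direction for 68 of 78 members, 43 large and 25 small, and within 1.5-fold for 78 of 78. No estimate reached 1.2-fold among the members, beside 21.2% of all tested genes and 8.46% of those in the members' range of CPM. The estimate reached 1.1-fold in 11 of 78 members, beside 38.5% of all tested genes and 25.1% of those in the members' range of CPM.

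By class, the 30 large-subunit proteins with a bacterial counterpart had 2 genes that rose and 1 that fell (10%, median log2 fold change 0.04). The 19 mitochondria-specific ones had 1 that rose (5.26%, median 0.04). The 16 small-subunit proteins with a bacterial counterpart had 1 of each (12.5%, median 0.07). Each of these shares lay below the 17.3% of all tested genes that passed. Of the 10 mitochondria-specific proteins of the small subunit 0 passed by edgeR, DESeq2 or limma-voom, with a median of 0.02. Among these 10, 1 gene had an unadjusted edgeR p under 0.05, beside 3645 of all 12810 tested genes. Symbols do not always give the place of the protein. Mrps30 and Mrps18a sit in the large subunit, and their log2 fold changes were 0.11 and 0.09 with edgeR adjusted p of 0.213 and 0.444. Mrps36, now assigned to the 2-oxoglutarate dehydrogenase complex, had 0.07 with an edgeR adjusted p of 0.392.

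The 3 related proteins Mrps18a, Mrps18b and Mrps18c had estimates of unlike sign. Mrps18b measured 27.3, 28.1 and 27.7 CPM in WT and 30.8, 29.7 and 29.9 CPM in KO, and Mrps18c 43.5, 40.9 and 45.9 CPM in WT and 43.5, 38.8 and 42.7 CPM in KO. The groups were apart for Mrps18b and overlapped for Mrps18c, with log2 fold changes of 0.12 and -0.06 and edgeR adjusted p of 0.157 and 0.535. Mrpl58, a peptidyl-tRNA hydrolase built into the large subunit, had 0.04 with an edgeR adjusted p of 0.674. Mrps12, a protein of the decoding centre, had 0.07 with an edgeR adjusted p of 0.616, and the sign turned to -0.02 without KO replicate 2, its highest library.

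The large and small subunit were then compared within each library. Large-subunit genes summed to 2070, 2043 and 2098 CPM in WT and 2140, 2069 and 2167 CPM in KO. Small-subunit genes summed to 1084, 1061 and 1082 CPM in WT and 1109, 1091 and 1119 CPM in KO. KO replicate 2 lay within the WT range for the large subunit, and the groups were apart for the small subunit. The means were higher in KO by 2.68% in the large and 2.84% in the small subunit.

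The ratio of the large to the small sum, which also reflects the number and length of the genes, was 1.91, 1.92 and 1.94 in WT and 1.93, 1.90 and 1.94 in KO. The groups overlapped, at 1.92 ± 0.0148 and 1.92 ± 0.0220 (SD, n = 3). On the log2 scale the KO mean differed from the WT mean by -0.0024, less than the pooled SD of 0.0141. No test was run on these sums, since they are scores over the members.

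**Figure D3:**
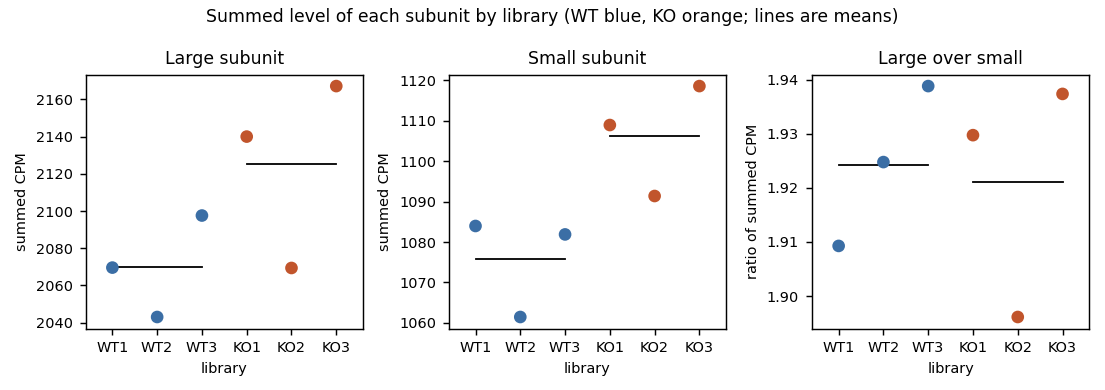
Summed CPM of the 49 large-subunit and 29 small-subunit genes, and their ratio (y axes, which do not start at 0), in each library (x axis); points are libraries and lines are means of 3. The KO points of the small subunit lie above all WT points, KO replicate 2 falls within the WT range for the large subunit, and the ratios of the groups overlap.

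Single libraries differed in how many members were at their extreme. KO replicate 3 was the highest of the 6 libraries for 28 members (35.9%) and KO replicate 1 for 21 (26.9%), beside 20.6% and 13.9% of all tested genes. KO replicate 2 was the highest for 8 members (10.3%) and the lowest for 16 (20.5%), beside 17.8% and 17.4% of all tested genes. WT replicate 2 was the lowest for 25 members (32.1%) and WT replicate 1 for 20 (25.6%), beside 16.0% and 15.5% of all tested genes. KO replicates 2 and 3 were also the pair of libraries within a group that differed most over all genes, with a chi-square of 7.19 per degree of freedom, beside 3.26 to 4.79 in the other pairs. Its part in the members' values was not tested.

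Levels between members were compared per length, with the deposited FPKM, which divides counts by gene length and library total. Mean FPKM over the 6 libraries ran from 2.05 in Mrpl14 to 119 in Mrpl33, a ratio of 57.8, with a median of 23.7 over all members, 24.0 in the large and 23.4 in the small subunit. Mrpl33 had 124 ± 1.71 FPKM in WT and 114 ± 8.02 in KO (SD, n = 3), and Mrps16 102 ± 3.78 and 92.2 ± 2.04. Next came Mrpl12, at 85.6 ± 3.81 and 91.7 ± 2.78 FPKM, and Mrps18c, at 86.2 ± 4.84 and 83.3 ± 5.18, whose libraries overlapped in WT, while in KO those of Mrpl12 were all above those of Mrps18c. Mrpl42 followed at 82.0 ± 2.47 and 84.8 ± 1.34 FPKM.

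At the lower end Mrpl14 had 2.06 ± 0.211 FPKM in WT and 2.05 ± 0.0914 in KO, and Mrps25 4.02 ± 0.160 and 4.05 ± 0.247. Mrpl1 and Mrpl17, at 4.98 ± 0.504 and 4.90 ± 0.315 FPKM in WT, overlapped in their spread. The order depended on the length used. The deposited FPKM imply 7525 bp for Mrpl14, beside 645 bp of its principal coding transcript in GENCODE M21, and its rank moved from 78 to 42 with the latter. Mrpl4 moved from rank 72 to 14, with 8452 and 1288 bp, and Mrps16 from rank 2 to 41, with 654 and 2572 bp. Mrpl33 was first by either length. With transcript lengths, an alternative chosen after the data were seen, the highest level was 28.7 times the lowest, and 7 of the 10 highest and 5 of the 10 lowest members were shared. Over the 78 members the levels by either length had a Spearman correlation of 0.672, and both levels come from the same counts.

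**Figure D4:**
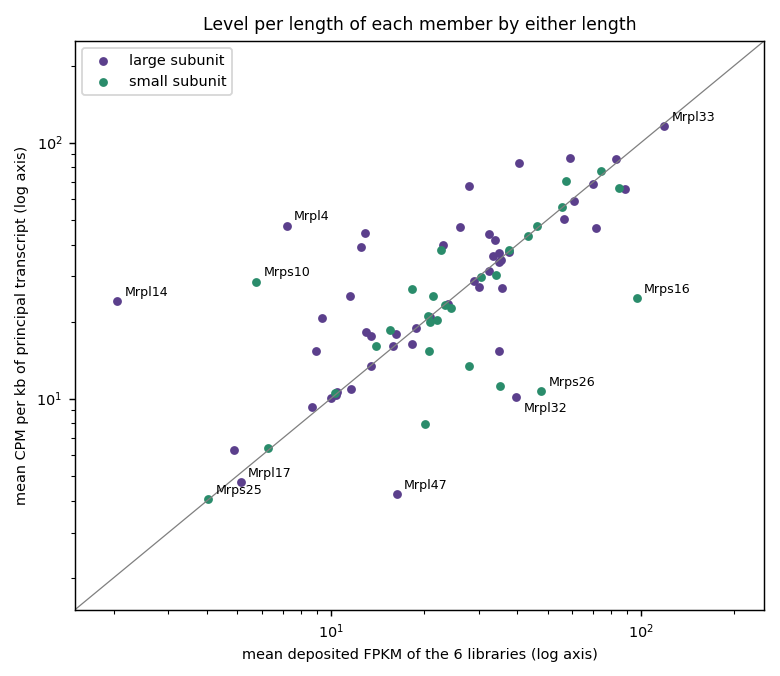
Mean level per length of each of the 78 members over 6 libraries by the deposited FPKM (x axis, log) and as CPM per kilobase of the principal GENCODE transcript (y axis, log), with the line of equality. Mrpl33 is first by either length, while Mrpl14, Mrpl4 and Mrps10 lie far above the line. Members far below it include Mrps16, Mrps26, Mrpl32 and Mrpl47.

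Many members share a start region with another gene. In the GRCm38 annotation, 33 of 78 members (42.3%) had a protein-coding neighbour on the opposite strand whose start lay within 1000 bp, head to head, beside 17.2% of 11274 tested genes with an entry. Mrps11 and Mrpl46, of the small and the large subunit, face each other, with log2 fold changes of 0.14 and -0.02 and edgeR adjusted p of 0.196 and 0.896. Their exons overlap by 173 bp on opposite strands, so reads there may have been miscounted or left out. Mrps12 faces Sars2, the mitochondrial seryl-tRNA synthetase, and Mrpl43 faces Twnk, the helicase that unwinds mitochondrial DNA for replication.

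Of 30 tested neighbours, which include the members Mrps11 and Mrpl46, 1 rose and 1 fell (6.67%), beside 17.3% of all tested genes that passed. Wdfy1 rose, with a log2 fold change of 0.55 and an edgeR adjusted p of 1.54e-07, while Mrpl44 beside it had 0.08 and 0.446. Pnpla7 fell, with -0.27 and 0.00504 by edgeR, while Mrpl41 beside it had 0.08 and 0.413. Exons of 20 members overlap a gene on the opposite strand and 4 a gene on the same strand, and 3 members have an annotated -ps copy.

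Other genes of mitochondrial gene expression were read from the same fit, in which 7.23% of all tested genes rose and 10.1% fell. Of 29 genes for ribosome assembly and modification of ribosomal RNA, 2 rose (6.90%) and 0 fell, namely Fastkd2, which binds the RNA of the large subunit, by 0.20 ± 0.07 (SE; edgeR adjusted p 0.0346), and the helicase Dhx30 by 0.14 ± 0.05 (0.0433). Of 18 translation factors, 2 rose (11.1%). Tufm, the elongation factor that delivers aminoacyl-tRNA, measured 87.6, 92.1 and 89.6 CPM in WT and 98.0, 95.2 and 98.5 CPM in KO, with a log2 fold change of 0.12 ± 0.04 (SE) and an edgeR adjusted p of 0.0331. Pdf, the deformylase that removes the formyl group from the first methionine of new chains, rose by 0.23 ± 0.08 (SE; edgeR adjusted p 0.0485). DESeq2 and limma-voom each passed 1 of the 18 translation factors.

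Of 14 genes for mitochondrial DNA maintenance and transcription, 1 rose (7.14%). Top1mt, the mitochondrial topoisomerase, had 8.29, 8.60 and 6.83 CPM in WT and 12.1, 11.4 and 10.5 CPM in KO. Its groups were clearly apart, and its log2 fold change of 0.52 ± 0.11 (SE; edgeR adjusted p 0.00109) was larger than that of any member. The 20 genes listed as aminoacyl-tRNA synthetases include the amidotransferase genes Qrsl1, Gatb and Gatc, which are not synthetases. None of the 20 passed by edgeR, DESeq2 or limma-voom, and their median log2 fold change was 0.05. None of the 5 ribosomal proteins under other symbols passed by these tools either. The 5 include Dap3 at 0.11 and Chchd1 at 0.11 (edgeR adjusted p 0.105 and 0.144). An unadjusted edgeR p under 0.05 was found for 4 of the 20 and 2 of the 5, beside 3645 of all 12810 tested genes.

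The messenger RNAs that the ribosome translates were measured too. Of the 13 mitochondrially encoded genes with a row, CYTB, a core subunit of respiratory complex III, rose from 2325, 2457 and 2485 CPM to 2695, 2744 and 2495 CPM. KO replicate 3 exceeded the highest WT library by little, and the log2 fold change was 0.13 ± 0.03 (SE; edgeR adjusted p 0.00202). DESeq2 passed 0 of the 13 and limma-voom 1. The median log2 fold change of the 13 was 0.10, and 12 of 13 (92.3%) were above 0, beside 50.4% of all tested genes. The remaining gene had the largest estimate in size, at -0.41, while the highest of the 13 was 0.31. The groups were apart for 1 of 13 (7.69%), beside 32.1% of all tested genes. The summed level overlapped, at 13856 to 14858 CPM in WT and 14064 to 16143 CPM in KO. KO replicate 3 did not share the lean of the other KO libraries: it lay below all WT libraries for ND1, COX1, ND2, COX2, COX3 and ND4L, for example at 1746 CPM of ND1 beside 1760, 1958 and 1947 CPM in WT. The ribosomal RNAs of the mitochondrial ribosome were not analysed here. Of 15 tested regulators of mitochondrial biogenesis, only Myc passed. Myc, a factor known to drive ribosome and mitochondrial genes, fell from 222, 228 and 225 CPM to 148, 147 and 146 CPM, a log2 fold change of -0.62 ± 0.03 (SE), with an edgeR adjusted p of 1.93e-13 and all libraries of a group close together.

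**Figure D5:**
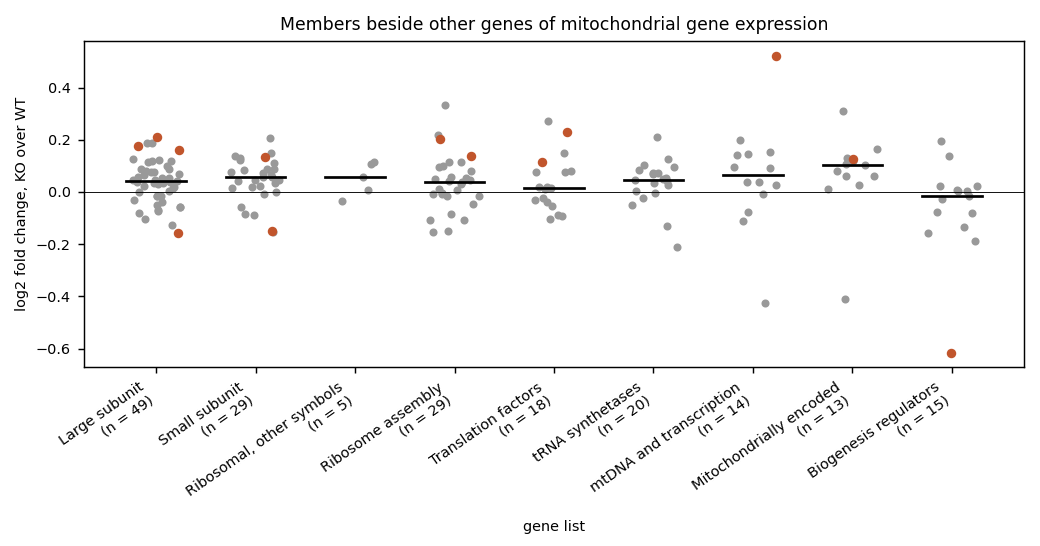
Log2 fold change of KO over WT (y axis) of each tested gene in the 2 subunits and 7 other lists of mitochondrial gene expression (x axis, with the number of genes); orange points passed the test, grey points did not, and bars are medians. The members lie close to 0, Top1mt at 0.52 and Myc at -0.62 stand farther out among the genes that passed.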

How the data were processed

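RNA of the sorted cells was isolated with TRIzol and made into libraries with a VAHTS kit, per the labels' protocols. The submitters' processing notes name fastp, HISAT2, HTSeq and the build GRCm39. Not given in the sources used here are the part each tool had, its version, the annotation, and whether strand was used. The deposited counts are whole numbers per gene without further normalization. The deposited FPKM equal these counts over the column total and 1 fixed length per gene in 19390 genes, with a tolerance of 0.01 bp, and the origin of the lengths is not given.

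The test was that of edgeR 4.0.16 (R 4.3.3), with TMM scaling, filterByExpr by group, glmQLFit and glmQLFTest on the label, with Benjamini-Hochberg adjustment over 12810 tested genes. The filter left out 0.0366% of counts. Scaling factors were 0.994 to 1.01, and the biological coefficient of variation was 4.16%. Each standard error was obtained by dividing the size of the fold change by the square root of F. Alternatives used DESeq2 1.42.0 and limma 3.58.1, other scalings and filters, a stricter threshold, the replicate number as a block, deposited FPKM on the log2 scale, and each library left out. The scripts were tested on simulated counts.

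Members and gene lists were chosen with earlier results of these data known. Members named are those that passed, the 5 with the smallest p, the 3 highest and 3 lowest fold changes and the 5 highest and lowest FPKM of each subunit, a fixed group whose place or family is unusual, and genes of the other lists by p. The text leaves out some of them. Other genes, such as neighbours and motif examples, were chosen after their values were seen. Promoters come from RefSeq GRCm38.p6 and gene order and transcript lengths from GENCODE M21 for GRCm38, matched by symbol with Python 3.11.15. No GRCm39 coordinates were used.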

Additional observations from a re-analysis of the deposited data

How the results depend on the processing

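All genes called numbered 2219 and 1383 at an adjusted p under 0.01. Members called numbered 6, and 10 with upper-quartile scaling, 10 with library totals alone and 1 (Mrpl10) at an adjusted p under 0.01. Of the large subunit 4 were called, and 1 at the stricter threshold. Of the small subunit 2 were called, 4 with upper-quartile scaling, 4 with library totals alone, 1 with DESeq2, and 0 at the stricter threshold. Of the 29 small-subunit genes, 6 had an unadjusted edgeR p under 0.05, beside 3645 of all 12810 tested genes. The median log2 fold change of the small subunit was 0.069 with upper-quartile scaling, 0.067 with library totals and 0.046 with Mrps30 and Mrps18a moved to the large subunit and Mrps36 left out. Leaving out each library gave 1660 to 2256 genes called, 3 to 7 members, 2 to 5 large and 0 to 3 small ones, medians of 0.026 to 0.069 (large) and 0.039 to 0.074 (small), and a log2 ratio difference of -0.0086 to 0.0070. The level ratio of 57.8 became 28.7 with transcript lengths, a setting chosen after the data were seen, as was the count of promoter windows. Members above 0 numbered 57 with all libraries and 53 to 58 with 1 library left out, so some estimates near 0 turned sign. Genes whose sign turned include Mrps12 (-0.018 without KO replicate 2, beside up to 0.11 without KO replicate 3), Cd4 (0.17 without WT replicate 3 and 0.0071 without KO replicate 1, beside -0.47 without WT replicate 1) and Cd8b1 (0.00077 without KO replicate 3, beside -0.042 without WT replicate 3). The cause of these shifts was not tested. Mrpl10 passed in 16 of 16 alternatives at the threshold of 0.05, Mrpl4 in 15, Mrpl45, Mrpl13 and Mrps16 in 14 each, and Mrps5 in 8.

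Correlations of same-numbered libraries' deviations from their group means were 0.055, -0.022 and -0.039. The best correlations with a library of another number were 0.0095, 0.029 and 0.079. These values show no clear pairing by number, but they cannot tell whether same-numbered libraries were prepared together, which the labels do not say. With the replicate number as a block, 1969 genes and 5 members were called, 1 of them in the small subunit, and Mrps5 had an adjusted p of 0.0709 in edgeR.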
